A study of Mus musculus and Rattus norvegicus with 28 samples.

Results

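At embryonic day 18.5 (E18.5), the fetal stage of the series, open chromatin at gene promoters was set beside the transcript level of the same genes in cardiomyocytes (CMs). All 55450 genes of the GENCODE vM21 annotation on mm10 were placed in a class by the 2 E18.5 ATAC-seq peak lists. A gene counted as having a promoter peak when at least 1 peak lay within 2.5 kb of the start of any of its transcripts. The peaks of a gene in the 2 lists did not have to overlap. In both lists 10314 genes had such a peak (18.6% of the genes), 3650 had it in 1 list and 41486 had it in neither. The transcript level was the fragments per kilobase of transcript, scaled to the mapped fragments of the library (FPKM), of the 2 E18.5 RNA-seq libraries. Genes with at least 1 FPKM in both libraries were called expressed, and genes under 0.1 FPKM in both were called silent.

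The CMs came from the left ventricles of wild-type C57BL/6 mice of both sexes, with no treatment, and were freed with trypsin and collagenase. A plating step took away cells that attach quickly, and no marker sort was used. Each assay had 2 biological replicates at E18.5, and the same pair of assays was made at postnatal days 1, 3 and 7 (P1, P3 and P7). How many hearts went into a library, and whether the ATAC-seq and RNA-seq libraries shared hearts, is not given in the sources used here.

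The 2 E18.5 lists were the shortest of the 8 ATAC-seq lists, with 13149 and 14910 peaks against 19753 to 95257 at the later stages. Of the peaks in list 1, 71.5% overlapped a peak of list 2, and 63.4% of the peaks in list 2 overlapped a peak of list 1. The peak names of E18.5 list 1 share a stem with those of P7 list 1, and the sample labels were followed. Only 1 interval was identical in these 2 lists. List 1 overlapped the longer P7 lists 1 and 2 at 92.6% and 92.1% of its peaks. The RNA-seq libraries held about 29.3 M and 34.1 M aligned reads of 150 bp, and their FPKM values had a Spearman rho of 0.963 over 12070 protein-coding genes. Markers of CMs were present in both: 20 of 20 listed CM genes were expressed, at a median of 1303 FPKM. Of 52 markers of fibroblasts, endothelial cells, smooth muscle cells and pericytes, macrophages and the epicardium, 46 were also expressed, at a median of 15.6 FPKM. Adult globin transcripts took 5.46% and 6.41% of the summed TPM, the share of each transcript scaled to a fixed total. RNA library 2 also held transcripts of liver products, with Alb (albumin) at 0.184 FPKM in library 1 and 52.9 in library 2, and Afp (alpha-fetoprotein) at 0.0326 and 6.24. The summed level of the 21 liver, pancreas and skin genes was 9.68 and 91.3 FPKM; values are therefore given for both libraries.

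In ATAC-seq a transposase inserts sequencing adapters into DNA that is not covered by nucleosomes, and a peak caller marks the places where the insertions pile up. Promoters of transcribed genes usually carry a nucleosome-depleted stretch just before the start site, where the general transcription machinery and sequence-specific factors bind. Many promoters of genes used in all tissues are rich in the CpG dinucleotide and tend to be open, while many promoters of tissue-specific genes are poor in CpG and some carry a TATA box. The amount of messenger RNA in a cell depends on how often the promoter fires and on how long the transcript lasts, so an open promoter and a transcript level are different measurements.

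The promoters of 8 genes show the combinations of peak and transcript that the results turn on. Each runs from 250 bases before to 50 bases after the RefSeq start site on GRCm38.p6, 5′ to 3′ on the gene's strand, and capitals mark each CpG. Actc1 (cardiac actin of the thin filament, chr2:114052826-114053125, minus strand) and Eef1a1 (the translation elongation factor that brings tRNAs to the ribosome, chr9:78481675-78481974, minus strand) were highly expressed with a peak in both lists, and held 7 and 22 CpGs.
Actc1: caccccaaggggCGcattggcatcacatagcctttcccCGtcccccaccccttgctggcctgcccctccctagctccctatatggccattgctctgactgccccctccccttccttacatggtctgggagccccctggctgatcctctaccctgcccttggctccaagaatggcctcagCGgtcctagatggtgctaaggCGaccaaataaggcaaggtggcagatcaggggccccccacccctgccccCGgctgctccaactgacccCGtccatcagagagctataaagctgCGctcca
Eef1a1: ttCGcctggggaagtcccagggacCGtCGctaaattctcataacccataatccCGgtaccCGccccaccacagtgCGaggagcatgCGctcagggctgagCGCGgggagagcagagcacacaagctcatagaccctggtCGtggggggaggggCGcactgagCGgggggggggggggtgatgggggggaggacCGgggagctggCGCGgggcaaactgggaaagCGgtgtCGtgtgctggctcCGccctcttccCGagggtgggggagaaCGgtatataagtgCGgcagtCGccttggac
Hbb-bs (adult beta-globin, chr7:103827879-103828178, minus strand) and Hba-a1 (adult alpha-globin, chr11:32283422-32283721, plus strand) had the highest FPKM of the genes without a peak, and held 2 and 4 CpGs. Mb (myoglobin, the oxygen store of muscle, chr15:77022738-77023037, minus strand) and Myh7 (the slow myosin heavy chain of the fetal ventricle, chr14:54994577-54994876, minus strand) followed the globins and are CM genes. They were added after their values were seen, and held 1 and 5 CpGs.
Hbb-bs: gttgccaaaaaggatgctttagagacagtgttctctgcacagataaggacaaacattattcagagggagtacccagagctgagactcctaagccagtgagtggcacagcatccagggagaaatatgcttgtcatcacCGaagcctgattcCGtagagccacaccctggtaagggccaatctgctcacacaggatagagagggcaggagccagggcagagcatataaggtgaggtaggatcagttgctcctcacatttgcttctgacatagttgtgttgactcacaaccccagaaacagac
Hba-a1: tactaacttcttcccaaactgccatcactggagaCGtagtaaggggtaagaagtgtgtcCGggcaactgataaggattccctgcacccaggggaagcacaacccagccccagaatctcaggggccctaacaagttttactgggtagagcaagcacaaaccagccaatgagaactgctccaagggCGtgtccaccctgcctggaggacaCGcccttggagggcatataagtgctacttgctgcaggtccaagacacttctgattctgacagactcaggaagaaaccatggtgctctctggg
Mb: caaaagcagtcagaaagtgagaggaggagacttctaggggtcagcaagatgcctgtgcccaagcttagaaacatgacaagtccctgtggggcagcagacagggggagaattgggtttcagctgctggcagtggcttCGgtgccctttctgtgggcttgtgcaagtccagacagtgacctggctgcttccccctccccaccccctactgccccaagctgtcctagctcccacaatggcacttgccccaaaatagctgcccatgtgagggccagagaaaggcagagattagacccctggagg
Myh7: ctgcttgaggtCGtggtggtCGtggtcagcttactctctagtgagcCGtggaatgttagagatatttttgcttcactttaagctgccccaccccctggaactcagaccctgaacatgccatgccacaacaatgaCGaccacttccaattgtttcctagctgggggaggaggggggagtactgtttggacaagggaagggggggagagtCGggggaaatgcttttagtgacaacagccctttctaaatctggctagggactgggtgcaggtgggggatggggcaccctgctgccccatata
Gpc5 (a glypican, a heparan sulfate proteoglycan of the cell surface, chr14:115091965-115092264, plus strand) and Gm11213 (chr4:63600715-63601014, minus strand) were silent with a peak in both lists, and held 17 and 5 CpGs.
Gpc5: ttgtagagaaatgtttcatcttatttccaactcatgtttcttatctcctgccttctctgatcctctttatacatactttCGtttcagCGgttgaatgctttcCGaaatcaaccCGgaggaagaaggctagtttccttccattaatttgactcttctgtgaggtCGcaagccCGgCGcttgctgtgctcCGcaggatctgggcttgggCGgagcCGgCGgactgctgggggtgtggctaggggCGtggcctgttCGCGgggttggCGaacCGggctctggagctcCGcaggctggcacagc
Gm11213: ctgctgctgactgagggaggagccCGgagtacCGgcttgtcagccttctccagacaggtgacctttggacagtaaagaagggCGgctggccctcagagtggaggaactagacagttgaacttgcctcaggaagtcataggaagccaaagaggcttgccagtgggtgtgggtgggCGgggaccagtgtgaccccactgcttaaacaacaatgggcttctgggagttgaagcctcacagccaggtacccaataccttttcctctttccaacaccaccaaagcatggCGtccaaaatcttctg

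Genes with a promoter peak in both lists had a median of 6.11 FPKM, genes with a peak in 1 list 1.90, and genes without a peak 0. Of the 10314 genes with a peak in both lists 7511 were expressed (72.8%), against 2827 of the 41486 without a peak (6.81%). The median log2(FPKM + 1) of the first class lay above that of the last by 2.88 with RNA library 1 and by 2.75 with RNA library 2. When each peak list was joined to each RNA library singly, the 4 pairs gave 2.73, 2.60, 2.74 and 2.60 (mean 2.67, SD 0.0762), for genes with against without a peak in that list. The spread over the pairs was small beside the difference. Genes are not replicates and share the same 4 libraries, so no p was computed across genes.

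The classes differed in what kinds of genes they held. Of the 21951 protein-coding genes 8178 had a peak in both lists (37.3%), 2567 in 1 list and 11206 in neither. The middle 50% of the protein-coding genes with a peak in both lists ran from 3.53 to 22.8 FPKM around a median of 9.52, and 7234 of them were expressed (88.5%). Without a peak the median was 0.0295 FPKM, 2130 genes were expressed (19.0%) and 6331 were silent (56.5%). Seen from the transcript side, 64.2% of the 11272 expressed protein-coding genes had a peak in both lists and 18.9% had none. Of the 6661 silent protein-coding genes, 2.54% had a peak in both lists and 95.0% had none.

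Long non-coding genes with a peak were lower than protein-coding ones. Of 10155 such genes 1247 had a peak in both lists (12.3%), and their median was 0.159 FPKM, with 173 expressed and 437 silent. Without a peak the median of the 8317 long non-coding genes was 0 FPKM and 146 were expressed. Of the 13523 pseudogenes 209 had a peak in both lists (1.55%), and reads of a pseudogene and its parent gene can be counted for each other.

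**Figure D1:**
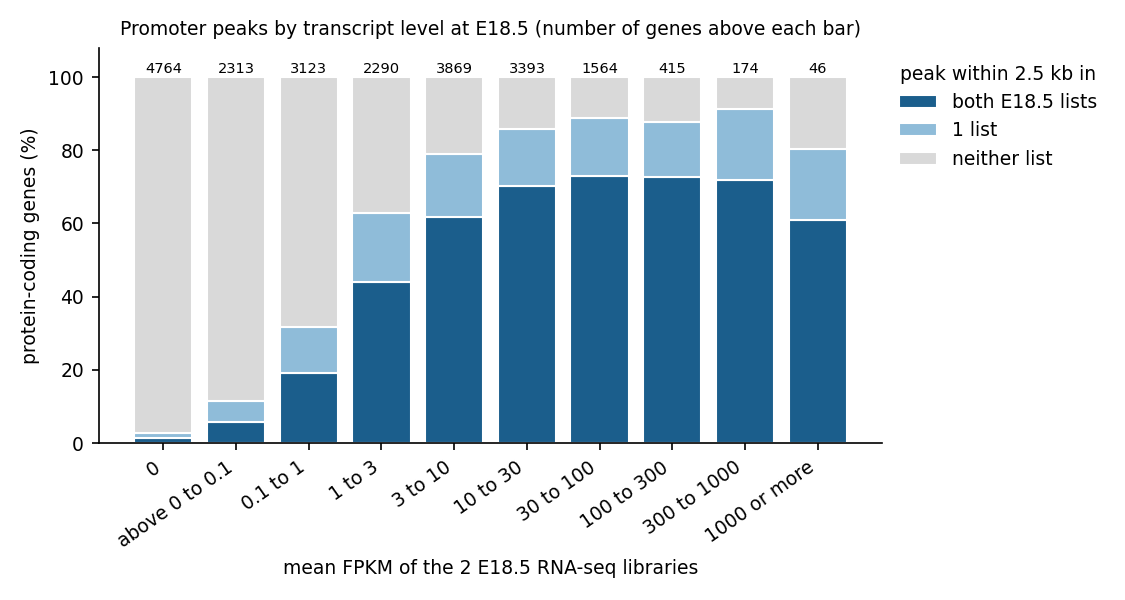
Share of protein-coding genes (percent, vertical axis) with an E18.5 promoter peak in both lists, 1 list or neither, by mean FPKM of the 2 E18.5 RNA-seq libraries (horizontal axis, bins on a log scale). The share with a peak in both lists climbed from 1.39% at 0 FPKM to 73.0% at 30 to 100 FPKM, and was 60.9% in the 46 genes of the highest bin.

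The share of protein-coding genes with a peak in both lists went up with FPKM over the lower part of the range and then levelled. It was 1.39% of the 4764 genes at 0 FPKM, 5.75% of those above 0 and under 0.1 FPKM, and 19.2% from 0.1 to 1 FPKM. From 1 to 3 FPKM it was 44.1%, from 3 to 10 it was 61.9%, and from 10 to 30 it was 70.1%. Above that the share moved little, with 73.0% at 30 to 100 FPKM, 72.8% at 100 to 300 and 71.8% at 300 to 1000. At 1000 FPKM and more, 28 of 46 genes had a peak in both lists (60.9%) and 9 had none (19.6%).

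Just under 1 FPKM (0.8 to 1) 28.7% of 359 protein-coding genes had a peak in both lists, and in the next bin above it 33.4% of 407 did. Around the other limit the shares were 7.42% at 0.08 to 0.1 FPKM and 14.9% at 0.1 to 0.125. For the distance limit, the peak was taken from the list in which it lay farther from the start. The 102 protein-coding genes at 2 to 2.5 kb, just inside, had a median of 3.21 FPKM and 61.8% were expressed, and the 90 genes at 2.5 to 3 kb, just outside, had 3.35 FPKM and 57.8%. Peaks that covered a start in both lists, at 6178 genes, went with a median of 10.3 FPKM, and 91.1% of these genes were expressed. Within 500 bp of the start, at 1490 genes, the median was 8.19 FPKM and 84.7% were expressed. The 12423 genes with no peak within 10 kb in at least 1 list had a median of 0.0616 FPKM.

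A gene with many annotated starts has more places where a peak can be counted. Of the 4895 protein-coding genes with 1 start 16.1% had a peak in both lists, against 26.9% of the 6930 with 2 or 3 starts and 54.6% of the 10126 with 4 or more. Within these groups the difference in median log2(FPKM + 1) between peak in both lists and no peak was 2.39, 3.27 and 2.92. It was 3.24 in protein-coding genes with another gene's start within 5 kb and 3.38 in those without.

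Among the genes with a peak in both lists, the 12 with the highest FPKM included sarcomere genes, genes of energy supply and genes of protein synthesis. Actc1 had 5864 and 8565 FPKM in the 2 RNA-seq libraries, with a peak strength (fold enrichment at the summit, from the peak caller) of 4.03 and 4.97 in the 2 lists. Tnnt2, the troponin that binds tropomyosin and a common CM marker, had 6141 and 7172 FPKM with a strength of 5.71 and 4.27. When only the start of its most abundant transcript was counted, Tnnt2 had a peak in neither list. It was the only gene of the 12 to change. Myl2, the regulatory light chain of ventricular myosin, had 5267 and 6835 FPKM with a strength of 4.85 and 5.16. In these 3 genes RNA library 2 was the higher, and their peaks were weaker than the median peak of their list (5.94 and 5.65). Atp5b, a catalytic subunit of ATP synthase, had a stronger peak (11.2 and 8.38) at 2764 and 3196 FPKM. Tpt1, a small and abundant calcium-binding protein, had a strength of 11.8 and 10.4 at 1568 and 1701 FPKM. The remaining genes of the 12 were Eef1a1 at 3714 and 3662 FPKM, Tpm1, Aldoa, Gapdh, Tnni1, Rplp0 and Slc25a4. In 11 of the 12 RNA library 2 was the higher, and Eef1a1 was the exception. The strongest promoter peaks of Tpm1 and of Gapdh lay at different places in the 2 lists. Each promoter peak of Actc1, Atp5b, Aldoa and Tpt1 also lay within 2.5 kb of the start of another expressed gene.

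**Figure D2:**
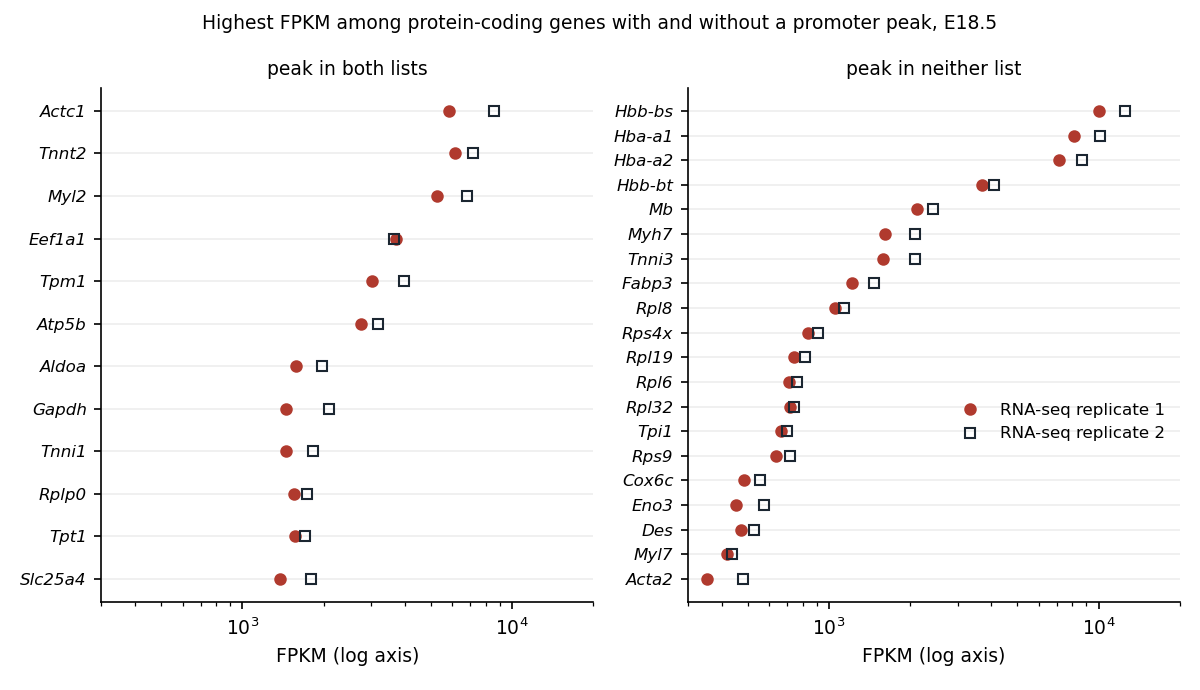
FPKM in each of the 2 E18.5 RNA-seq libraries (horizontal axis, log scale) for the 12 genes with the highest FPKM among those with a promoter peak in both lists and the 20 with the highest FPKM among those with none. The 2 sets overlap in FPKM, and the globin Hbb-bs, with 10045 and 12490 FPKM and no peak, lies above Actc1, the highest gene with a peak.

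The strength of a promoter peak had little relation to FPKM. Over the 8178 protein-coding genes with a peak in both lists, Spearman's rho between mean strength and mean FPKM was 0.0059, and the 4 pairs of a list and a library gave 0.0098, 0.0127, −0.0004 and 0.0033. Over the 7234 of these that were expressed it was −0.037, and over all 10314 genes it was 0.0322. These are descriptions across genes that share libraries. For scale, the strengths in the 2 lists had a rho of 0.626 with each other. From the weakest to the strongest 10% of peaks the median strength went from 4.70 to 10.01, while the median FPKM was 9.71 in the weakest and 8.95 in the strongest and stayed between 8.29 and 10.7 in between.

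The number of bases under promoter peaks followed FPKM more closely than peak strength did. It was summed over all peaks near any start of a gene, and had a rho of 0.124 with FPKM. In 5 groups of the genes by that sum, the medians ran from 283 to 788 bp. The median FPKM was 7.25, 9.02, 9.27, 10.6 and 11.8, and the share of expressed genes went from 82.2% to 92.0%. A gene with more starts can hold more peaks. Genes with a peak in both lists had a median of 4.25 FPKM with 1 start, 8.76 with 2 or 3 and 10.5 with 4 or more. The part of start number in this relation was not tested. Of the protein-coding genes with a peak in both lists, the expressed had a median strength of 6.65 and the silent of 6.23. The strongest promoter peak of the gene lay over a start in both lists in 74.4% of the expressed and 43.8% of the silent genes.

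**Figure D3:**
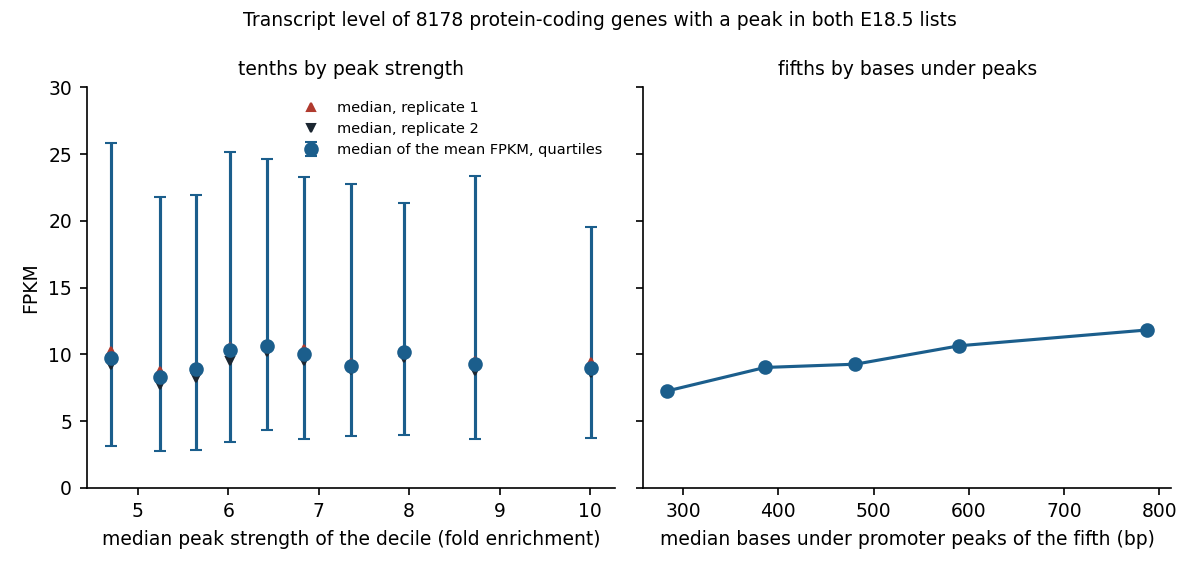
Median FPKM in groups of the 8178 protein-coding genes with a promoter peak in both E18.5 lists (vertical axis, linear scale). The groups were made by peak strength, with quartiles drawn, and by bases under promoter peaks (horizontal axes). Over strength the median FPKM stayed between 8.29 and 10.7, and over bases under peaks it went from 7.25 in the lowest group to 11.8 in the highest.

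The 12 genes with the strongest promoter peaks had means from 0.116 to 52.1 FPKM. Il31ra, a cytokine receptor subunit, had the strongest peak (19.9 and 25.02) at 0.213 and 0.0193 FPKM, and the peak lay 2277 and 2263 bp from its nearest start. Sspn, a small member of the dystrophin complex of the muscle membrane, had a strength of 16.4 and 21.5 at 20.6 and 24.1 FPKM. Golph3l, a Golgi protein, had 8.89 and 1.89 FPKM, and Pygo2, a co-factor of Wnt signalling, had 16.9 and 3.90. In these last 2 genes the RNA-seq libraries differed several-fold, with library 1 the higher. Copz1, a subunit of the coat of Golgi vesicles, was even, at 48.0 and 49.2 FPKM, and Pdia4, a folding enzyme of the endoplasmic reticulum, had 43.4 and 60.9. Between them, Pxylp1, Phf21a, Nbeal1, Ggct, Plcb4 and Mpp7 had means from 1.40 to 7.19 FPKM.

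Genes of the contractile apparatus were found in each peak class. Of the 20 CM genes, 10 had a peak in both lists, 6 in 1 list and 4 in neither. Over all expressed protein-coding genes 64.2% had a peak in both lists, and over those at 1000 FPKM or more 60.9% did. Besides the genes above, Csrp3 (605 and 927 FPKM), Actn2 (542 and 752), Myl4, Nppb and Ttn, the giant spring protein of the sarcomere, had a peak in both lists. Nppa, the atrial natriuretic peptide, had a peak in list 1, and Myl3, Tnnc1, Myh6 and Mybpc3 in list 2. Myl3, a light chain of ventricular myosin, had 4291 and 5148 FPKM, and its single peak had a strength of 4.62. Myh7, Tnni3 (cardiac troponin I), Myl7 and Pln had no peak.

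The next 2 lists stand beside the 64.2% of expressed protein-coding genes with a peak in both lists and the 18.9% with none. Their counts are over all members, of which 14 of 15 and 15 of 16 were expressed. Of the 15 transcription factors of the heart, 8 had a peak in both lists, 4 in 1 list and 3 in neither. Nkx2-5 (93.1 and 109 FPKM), Gata4 (71.3 and 65.9) and Gata6 (66.8 and 63.5), which specify and maintain CMs, had peaks over a start in both lists. Irx4, a factor of ventricular identity, had none at 20.9 and 26.0 FPKM, and Tbx5 had none at 5.86 and 4.24. In the Mef2 family, Mef2a had a peak in both lists, Mef2c in list 1 and Mef2d in list 2. Of the 16 genes of calcium handling and excitation, 4 had a peak in both lists, 5 in 1 list and 7 in neither. Those without a peak included Gja1 (the main gap junction protein of the ventricle, 338 and 211 FPKM), Pln (phospholamban, the brake of the calcium pump, 248 and 242), Casq2 and Trdn. Atp2a2, the calcium pump itself, had a peak in list 1 at 614 and 754 FPKM.

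In lists of metabolism, growth and stress the share of all members with a peak in both lists ran from 55.8% in the respiratory chain to 82.4% in fatty acid oxidation. Over expressed members alone it ran from 57.8% to 82.4% in the same lists, around the 64.2% of all expressed protein-coding genes. Of 17 genes of fatty acid oxidation 14 had a peak in both lists, and Slc25a20, the carnitine carrier of mitochondria, had none at 46.4 and 49.3 FPKM. Of 19 glycolysis gene models 13 had one, of 79 cytosolic ribosomal protein genes 53 (67.1%), and of 86 nuclear genes of the respiratory chain 48. Of 20 cell cycle genes 14 had a peak in both lists, among them Pcna (124 and 138 FPKM) and Ccna2 (37.4 and 49.2), and Ccnd2 and Bub1 had none. Each of the 16 immediate early genes, which respond to stress and to tissue dissociation within minutes, had a peak in at least 1 list and 13 had it in both. Fos was at 160 and 182 FPKM, and Jun at 111 and 202.

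Of 67 replication-dependent histone genes 51 had a peak in both lists (76.1%), but 21 were expressed and the median was 0.904 FPKM. These genes make transcripts without a poly(A) tail, and the RNA was selected by poly(A). The part of that selection in their FPKM was not tested. Some neighbouring genes of the list, such as Hist1h2ap and Hist1h4n, had peaks of the same strength (5.77 and 5.44). A peak can thus be counted for more than 1 of the 51. Genes of other lineages mostly had no peak, as did 95.0% of all silent protein-coding genes. Of 39 Hox genes 38 had no peak and 1 had a peak in 1 list, of 30 transcription factors of neural and other lineages 27 had none, and of 1135 olfactory receptor genes 1131 had none. Within the 30, Gata3 (0.784 and 0.741 FPKM), a T cell factor, and Pax5 (0.0766 and 0.0146), a B cell factor, had a peak in both lists. Of the 21 liver, pancreas and skin genes 17 had no peak, Alb and Afp included. Of 22 genes that the study names in its own account of these samples 14 had a peak in both lists, and that list is not independent of the data.

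For markers of other cell types the larger share had no peak. Of the 46 expressed markers of the 5 other types of heart cell, 7 had a peak in both lists (15.2%), 3 in 1 list and 36 in neither (78.3%), beside 64.2% and 18.9% over all expressed protein-coding genes. Among the fibroblast genes Postn (100 and 102 FPKM), Col3a1 (96.9 and 92.8) and Dcn (85.5 and 84.5) had no peak, while Fn1 and Pdgfra had one in both lists. Among the endothelial genes Pecam1 (77.8 and 41.9 FPKM) had none, and Cldn5, Kdr and Flt1 had one in both lists. The 12 endothelial genes summed to 578 and 325 FPKM, so library 1 held more of them. None of the 10 smooth muscle and pericyte genes and none of the 10 macrophage genes had a peak. Of the 36 expressed markers without a peak 31 had a peak in at least 1 later list and 5 had none, near the 11.5% with none over all 2130 expressed protein-coding genes without an E18.5 peak. In bulk samples fewer cells of a type and less RNA or less open chromatin per cell cannot be told apart, and each library here was a bulk sample. The part of other cell types in the class of expressed genes without a peak was not tested.

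The 2130 expressed protein-coding genes without a promoter peak included 731 at 10 FPKM or more and 75 at 100 FPKM or more. The 4 highest were globins: Hbb-bs had 10045 and 12490 FPKM, Hba-a1 8133 and 10097, Hba-a2 7151 and 8659, and Hbb-bt 3679 and 4101. The 2 alpha-globin genes are near copies and reads can be shared between them. In none of the 8 lists did a globin gene of these 4 have a promoter peak, and at P7 they had 1.05 to 4.24 FPKM in single libraries. Globins are made by red blood cells, whose mature form has no nucleus in mammals. Of the 12 erythroid genes found in the files 10 had no peak, and Tfrc (the transferrin receptor) and Klf1 had one in both lists.

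CM genes came next. Mb had 2123 and 2425 FPKM with the nearest E18.5 peak 3392 bp from its start, and Myh7 had 1620 and 2078 FPKM with the nearest peak 4901 bp away. Tnni3 had 1590 and 2090 FPKM, and its nearest peak lay 40997 bp away. Fabp3, the fatty acid carrier of heart muscle, had 1217 and 1474 FPKM. These 4 genes lay near Gapdh (1453 and 2089 FPKM) and Aldoa (1580 and 1969), which had peaks in both lists. Among the 20 highest genes without a peak were also 6 ribosomal protein genes (Rpl8, Rps4x, Rpl19, Rpl6, Rpl32 and Rps9) at means of 678 to 1097 FPKM, the glycolytic enzymes Tpi1 and Eno3, the respiratory subunit Cox6c, the intermediate filament gene Des, and the muscle genes Myl7 and Acta2. Of the 20, 15 had a promoter peak in at least 1 of the 6 later lists. The exceptions were the 4 globins and Myl7 (419 and 436 FPKM).

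The share of the 2130 genes with a promoter peak differed between the later stages. At P1 136 had it in both lists (6.38%), at P3 1557 (73.1%) and at P7 1258 (59.1%), beside 27.2%, 63.0% and 57.5% of all protein-coding genes at P1, P3 and P7. Among the 7234 expressed genes with an E18.5 peak in both lists, the shares were 65.1%, 99.6% and 99.4%. The 2130 genes thus lay below all protein-coding genes at P1 and above them at P3, and below the 7234 at each stage. In none of the 6 later lists was a peak found for 246 of the 2130 (11.5%), against 6144 of all 21951 protein-coding genes. Of the 6331 silent genes without a peak at E18.5, 646 had one in both lists at P3 (10.2%). At E18.5 itself the nearest peak to the 2130 genes lay at a median of 21095 bp, with 224 within 5 kb (10.5%) and 1023 within 20 kb (48.0%). For the 6331 silent genes the median was 94625 bp. A peak within the body of the gene was found for 277 of the 2130 (13.0%) and for 6990 of the 7234 expressed genes with a promoter peak (96.6%). This difference follows in part from how the classes were made. The strongest promoter peak lay over a start in both lists in 74.4% of the 7234, and such a peak is already in the body. The 2130 had by definition no peak near any start. The shares are thus no separate comparison of gene bodies. The age of the mice and the length of the lists changed together, so that their parts cannot be told apart.

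The opposite class, silent protein-coding genes with a promoter peak in both lists, held 169 genes, and 66 of them were listed at 0 FPKM in both libraries. For 92 of the 169 (54.4%), each promoter peak also lay within 2.5 kb of the start of an expressed gene, against 1670 of the 7234 expressed genes (23.1%). Xrra1 (strength 13.9 and 9.01), Gm28635, Gm45062, Gm28778 and Pjvk had the strongest peaks among the silent genes with a neighbour, and each of their peaks was shared with an expressed gene. Of the 169, 7 were mitochondrial genes, with a strength of 1.26 to 1.91, and the 13 protein-coding genes of the mitochondrial genome were listed at 0 FPKM in each of the 8 mouse RNA-seq libraries, although mitochondrial transcripts are abundant in heart muscle. That left 162 nuclear genes, 70 of them with at least 1 peak that was not shared and 37 with no other gene's start within 5 kb.

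Among the silent genes with no neighbour, Asmt, the last enzyme of melatonin synthesis (chrX:170672644-170678054 on mm10), had the strongest peak, 11.2 and 12.4, at 565 and 581 bp from its start, and was listed at 0 FPKM. The genome sequence around its start holds unassembled bases, and how well reads map there was not tested. Catspere2 had 11.4 and 11.1 at 0.0419 and 0.0234 FPKM. Gpc5 had 11.1 and 7.41 at 0.0415 and 0.0614 FPKM, and its peak lay over the start whose sequence is shown above. Stxbp5l and Nrxn3, genes of the synapse, had 9.03 and 7.54 and 7.92 and 6.66, at 0.0154 and 0.0349 and at 0.0859 and 0.0684 FPKM. With only the start of its most abundant transcript counted, Nrxn3 had a peak in neither list. At Asmt, Catspere2 and Gpc5 the strengths were near those at Atp5b, while both RNA libraries were under 0.1 FPKM. Lama1, a chain of basement membrane laminin, had 7.03 and 5.44. Of the 169 genes 165 also had a promoter peak in both lists at P3 (97.6%) and 164 at P7 (97.0%). For the 7234 expressed genes with an E18.5 peak the shares were 99.6% and 99.4%. Of the 169, 0 reached 1 FPKM in both RNA-seq libraries of P1, P3 or P7. Of the 6331 silent genes without a peak, 30 did so (0.474%).

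Promoter sequence differed between the classes. For each protein-coding gene the 300 bases around the start of its most abundant transcript, read from the GRCm38 genome for 21945 of the 21951 genes, were scored for the CpG ratio, the number of CpGs over that expected from the bases C and G. The median ratio was 0.797 in expressed genes with a peak in both lists, 0.742 with a peak in 1 list and 0.579 without a peak, against 0.542 over all protein-coding genes. In silent genes it was 0.620 with a peak in both lists and 0.172 without. The silent genes with a peak were not alike in this. Where every peak was shared with an expressed gene (92 genes) the median was 0.696, and in the other 77 it was 0.564. The shares at a ratio of 0.6 or more were 60.9% and 43.4%, beside 45.8% of all protein-coding genes. At a ratio of 0.6 or more, a common limit for a CpG-rich promoter, stood 77.9% of expressed genes with a peak, 48.4% of expressed genes without, 53.0% of silent genes with and 8.97% of silent genes without. The 1215 expressed genes without a peak at E18.5 that had one in each of the 4 lists of P3 and P7 had a median ratio of 0.694, and the 246 with none later had 0.252.

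**Figure D4:**
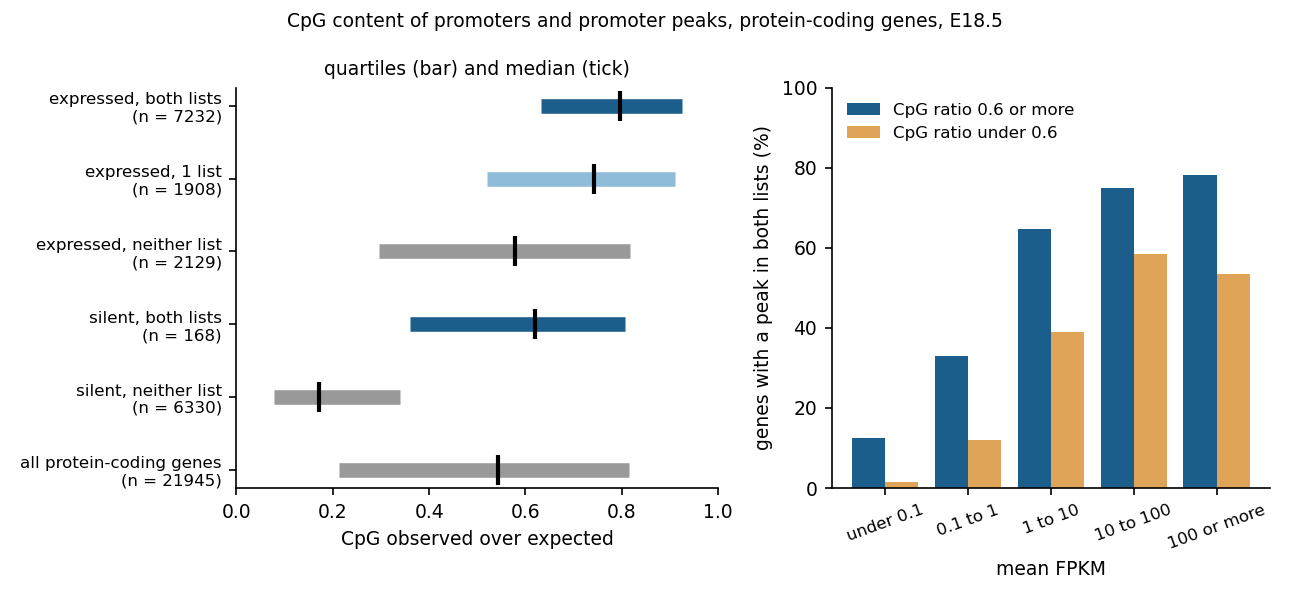
Share of protein-coding genes with an E18.5 promoter peak in both lists (percent, vertical axis) by FPKM bin, for promoters with a CpG ratio of at least 0.6 and under 0.6. In each bin the CpG-rich promoters lay higher, with 64.6% against 38.9% at 1 to 10 FPKM and 78.3% against 53.5% at 100 FPKM or more.

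At similar FPKM, the share with a peak was larger among CpG-rich promoters. Under 0.1 FPKM 12.4% of CpG-rich and 1.55% of other promoters had a peak in both lists, at 0.1 to 1 FPKM 32.9% and 12.1%, and at 10 to 100 FPKM 74.9% and 58.4%. Peaks and FPKM were still related within each kind of promoter. The difference in median log2(FPKM + 1) between peak in both lists and no peak was 2.62 in the 10047 CpG-rich genes and 2.85 in the 11898 others. Of the 20 highest genes without a peak 15 had a ratio under 0.6, with Hbb-bt at 0 and Mb at 0.0406. Of the 12 highest with a peak 6 did, among them Tnni1 at 0.187, Actc1 at 0.219 and Myl2 at 0.243. These ratios are for the start of the most abundant transcript, which for Actc1 differs from the RefSeq start of the sequence shown above.

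The motif TATAAA, searched on both strands of the 300 bases, was found in 12.6% of all promoters. It was in 6.37% of expressed genes with a peak in both lists, 10.8% of expressed genes without, 22.6% of silent genes without and 49 of the 245 genes with a sequence and no later peak. Starting 20 to 45 bases before the start it was in 2.68% of all promoters in 0.926% of expressed genes with a peak in both lists, in 5.29% of silent genes without and in 12 of the 245. A match is a description of the letters, not of a bound site.

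Like measurements were made in the 8 mouse ATAC-seq libraries, each joined to the RNA-seq library of its stage and number. They were made over all genes, with a peak counted in that list alone and expressed meaning at least 1 FPKM in that library. The rho values here are thus not those given above for protein-coding genes with a peak in both lists. The difference in median log2(FPKM + 1) between genes with and without a peak was 2.73 and 2.60 for the E18.5 pairs and 2.53 and 2.64 for those of P1. P3 gave 0.93 and 1.87, and P7 gave 1.89 and 2.16. The share of expressed genes with a peak was 69.8% and 64.6% for the E18.5 pairs and 72.5% and 44.9% for those of P1. P3 gave 93.6% and 90.1%, and P7 gave 88.9% and 88.5%. Spearman's rho between strength and FPKM was 0.0862 and 0.0663 at E18.5, and 0.119 to 0.270 at the later stages. The E18.5 libraries were thus the lowest 2 of the 8 in rho, and lay within the range of the others in share.

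Over all genes, E18.5 minus the 6 later libraries was 0.66 for the difference in medians, −12.5 percentage points for the share and −0.123 for rho. In an exact two-sided permutation test over the libraries, with 28 arrangements of 2 against 6, p was 0.179, 0.429 and 0.0357, and 0.268, 0.429 and 0.107 after Benjamini-Hochberg adjustment over the 3 measures. The smallest p this design allows is 0.0357, and none of the 3 differences passed 0.05 after adjustment. The later libraries were 2 each of P1, P3 and P7, and the test treats every library as a unit of its own. It thus cannot tell E18.5 against later age from a difference between any single stages. With every list shortened to the 13149 peaks of highest score, which follows −log10 q, the signs turned over for each of the 3: −0.08, 14.5 percentage points and 0.0936, with adjusted p of 0.321, 0.214 and 0.214 in the same exact test. For protein-coding genes alone, with the deposited lists, the difference in medians was 3.22 at E18.5 and 3.14 later, so E18.5 minus later was 0.0788. The share and rho then gave −12.1 percentage points and −0.0959. With a 1 kb window over all genes the 0.66 became 0.324.

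**Figure D5:**
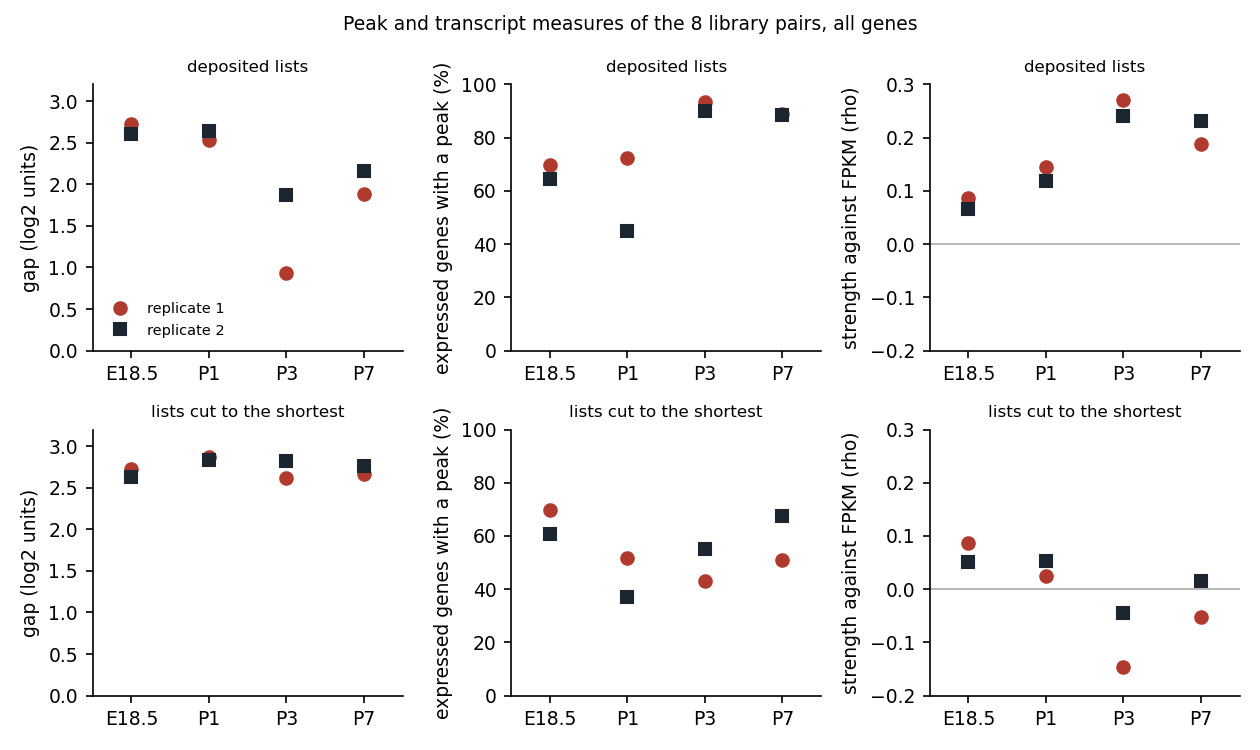
Difference in median log2(FPKM + 1) between genes with and without a promoter peak, share of expressed genes with a peak (percent) and Spearman's rho of strength with FPKM (vertical axes) in each of the 8 library pairs by stage, for the deposited lists and for lists shortened to the 13149 peaks of highest score. Each point is 1 pair of libraries over all genes, and with the deposited lists the 2 E18.5 points have the lowest rho, 0.0862 and 0.0663.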

How the data were processed

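The E18.5 data were 2 ATAC-seq peak lists and 2 RNA-seq files, with those of P1, P3 and P7 for comparison. The authors trimmed the ATAC-seq reads with cutadapt, aligned them with bowtie2 to mm10, removed duplicates with Picard, called peaks in each library with MACS2 and dropped peaks in blacklisted regions. In the deposited lists the strength is the ratio of signal to background (fold enrichment), followed by −log10 p and −log10 q, and the deposited score is a whole number near 10 times −log10 q. Read depth of the ATAC-seq libraries and any shift for the transposase are not given in the sources used here. A list shows where the caller passed its limit, so a missing peak does not show closed chromatin.

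RNA was selected by poly(A) and made into libraries without strand, so that overlapping and antisense genes cannot be told apart. The authors aligned it with HISAT2 2.1.0 and ran StringTie 1.3.5 on GENCODE vM21. The deposited files give FPKM, TPM and coverage per transcript, and the authors' FPKM is scaled for length and aligned reads. Depth was worked out from coverage over FPKM.

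The FPKM of a gene was summed over its transcripts and averaged over the 2 libraries, and differences were taken on log2(FPKM + 1), which understates the change of low genes. Starts were those of all GENCODE transcripts in the files, and the distance limit was 2.5 kb from the nearest base of a peak. Python 3.11.15, pandas 2.3.3, numpy 2.4.6, scipy 1.17.1 and matplotlib 3.10.9 were used. Classes were compared as descriptions, and E18.5 was compared with the later stages by an exact permutation test over libraries. The steps were tested on simulated data. CpG counts and motifs came from the GRCm38 genome, and the printed promoters from RefSeq, for genes whose RefSeq start lay within 500 bp of the start used.

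The genes named follow a rule: the 12 highest in FPKM and the 12 with the strongest peak among protein-coding genes with a peak in both lists, the 20 highest without a peak, and, among silent genes with a peak, the 15 strongest without and the 5 strongest with another start within 5 kb. Other genes named belong to 22 gene lists. The members and lists were chosen with earlier results of these data known. The alternatives were other windows, gene sets, pseudocounts, thresholds, TPM, shorter lists, a replicate block and each library left out.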

Additional observations from a re-analysis of the deposited data

How the results depend on the processing

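The difference between genes with and without a promoter peak kept its direction in each alternative run. Over all genes it was 2.83 as reported, 3.00 with a 1 kb window, 2.61 with 5 kb, 3.35 for protein-coding genes, 3.21 without neighbouring starts, 3.62 with TPM, 5.96 with a pseudocount of 0.1, 2.51 for genes of at least 0.1 FPKM, 2.92 with the stronger 0.5 of each list, and 2.69 to 2.88 with a library left out. The share of genes with a peak that were expressed (72.8%) was 76.6% at 1 kb, 67.9% at 5 kb, 73.4% by peak midpoint, 72.3% by the top transcript's start, 88.5% for protein-coding genes, 84.6% without neighbours, 77.0% with TPM, 74.9% with the stronger 0.5, 51.2% with limits of 5 FPKM and 0, and 70.0% to 74.5% with a library left out. Without a peak (6.81%) it was 8.33% by the top start, 19.0% for protein-coding genes, 5.45% without neighbours, 8.89% with TPM, 12.2% with the stronger 0.5, 3.03% with limits of 5 FPKM and 0, and 7.61% to 9.46%. The rank correlation of strength with FPKM (0.0322) was 0.0190 at 1 kb, 0.05001 at 5 kb, 0.00589 for protein-coding genes, 0.0740 without neighbours, 0.0124 from 0.1 FPKM, −0.0247 with the stronger 0.5 and 0.0304 to 0.0871 with a library left out. Expressed genes without a peak (2827) numbered 1537 without neighbours, 5628 with the stronger 0.5, 1256 with limits of 5 FPKM and 0, and 3158 to 4135 with a library left out. Silent genes with a peak (1066) numbered 169 for protein-coding genes, 151 without neighbours, 536 with the stronger 0.5, 612 with limits of 5 FPKM and 0, 1275 to 1458 with a library left out, and 70 for nuclear protein-coding genes whose peaks were not all shared, an alternative chosen after seeing the data. The time comparison turned over when lists were cut to 13149 peaks (−0.0823, 14.5 and 0.0936), and the cause was not tested. With a replicate block its values were the same (0.66, −12.5 and −0.123), its adjusted exact permutation p was 0.375, 0.5 and 0.188, and in the RNA-seq libraries, where pairing was checked, same-numbered samples did not deviate together at every pair of stages (r of −0.118 to 0.176). The read depth behind the peak lists is not given in the sources used here, and its part in a missing peak was not tested.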

Other observations

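At the 1247 long non-coding genes with an E18.5 promoter peak in both lists, the peaks were mostly also those of another gene. Of the 173 that were expressed, 129 (74.6%) had each promoter peak within 2.5 kb of the start of another, expressed gene, as did 295 of the 437 that were silent (67.5%). The same held for 1670 of the 7234 expressed protein-coding genes (23.1%). Of the 173 expressed long non-coding genes 19 had no other gene's start within 5 kb. The libraries carry no strand, so reads of a long non-coding gene that overlaps its neighbour cannot be told apart from those of that neighbour.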
